A study of Mus musculus with 10 samples.

Results

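The HoxA cluster was followed region by region with ATAC-seq, which tags open DNA with a transposase, while mouse embryonic stem cells were driven toward neuromesodermal progenitors. The members are the open regions that lie wholly inside chr6:52155367-52260880 of build mm10, an interval of 105514 bp. Merging the deposited peak lists of all 10 libraries gave 52 such regions out of 246799 in the genome, and each was given to the nearest span of a protein-coding gene. Of these, 49 went to the 9 genes described here: Hoxa2 (4 regions), Hoxa3 (18), Hoxa4 (3), Hoxa5 (2), Hoxa7 (3), Hoxa9 (3), Hoxa10 (6), Hoxa11 (4) and Hoxa13 (6). The other 3, at the outer 3′ end, lay nearest to a gene that is not described. They enter no count below, but are part of the sum over all 52 regions used to find the genes most like the cluster. Hoxa6 received no region, because a region at equal distance from overlapping genes went to the shorter span. The annotated Hoxa3 span runs over Hoxa4, Hoxa5 and Hoxa6, so regions credited to Hoxa3 reach as far as the gap before Hoxa7, and an assignment is a position and not evidence that a region acts on the gene. The gene table gives spans but no exons, so places are given relative to spans and start sites.

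All cells were ES-Bruce4, a wild-type C57BL/6 embryonic stem cell line, so every group shares 1 genotype and 1 line. They had been kept on mouse embryo fibroblasts, were depleted of those feeders once, and were then grown with the growth factor bFgf and, from day 2, with CHIR99021, an activator of Wnt signalling. There were 5 groups: day 2 (labelled epiblast stem cells), day 3, day 6, untreated day 7, and a day 7 group that received human Gdf11 at 50 ng/ml on day 6 and was taken 24 h later. Each group had 2 libraries, and the labels do not say whether these came from separate cultures. The p-values therefore rest only on the spread between libraries, which may be technical. For a region, that spread was estimated over all 5 groups and drawn strongly toward that of regions of like level.

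Hox genes encode homeodomain transcription factors that give cells their position along the body axis. In a cluster the genes lie in the order of the body levels they pattern, from the 3′ genes of the hindbrain and neck to the 5′ genes of the tail and limb tips, and in the embryo they are switched on in roughly that order. Wnt signalling and the Cdx factors are known to open Hox clusters in caudal progenitors, and Gdf11, a ligand of the TGF-beta family, is known for promoting the change from trunk to tail formation. All 9 genes are transcribed from the minus strand, so Hoxa2 lies at the low-coordinate, 3′ end and Hoxa13 at the high-coordinate, 5′ end.

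Levels are given in CPM, the counts of a region scaled to a common library total of 1000000, with the SD of 2 libraries. A log2 change carries a standard error, worked out from the change and the F value of its test. A region or gene was called when its adjusted p from the quasi-likelihood test of edgeR, with Benjamini-Hochberg adjustment over the whole table, was under 0.05. The shares of all regions or genes given below are for these calls only. Counts without adjustment or by DESeq2 have no such share beside them and cannot be set against it. The same holds for counts of peaks, of highest groups and of groups reaching a set level. Of the 49 regions, 45 passed the filter on low counts. Library totals ran from 7150334 to 12335735 counts, and 3 counts, the limit that a count of 0 allows, stood for 0.24 to 0.442 CPM. In a bulk sample, fewer cells with an open region and less opening per cell cannot be told apart. Accessibility summed over 5 epiblast marker genes was 382 to 420 CPM on day 2 and 158 to 181 CPM in the 2 day 7 groups and on day 6. The sum over 6 progenitor markers was 308 to 335 CPM on day 2, 486 to 499 on day 3, 439 to 443 on day 6, 502 to 572 on day 7 and 365 to 384 with Gdf11. These markers did not move together. From day 3 to day 7 the mean rose for Sox2 (153 to 237 CPM), Wnt3a (34.6 to 46.3) and T (17.9 to 39.4). It fell for Sp5 (132 to 109), Cdx2 (122 to 89.6) and Nkx1-2 (32.6 to 15.9). The sum over 10 fibroblast markers was 287 to 314 CPM on day 2 and 354 to 388 CPM in the 2 day 7 groups, with or without Gdf11. That over 5 endoderm markers stayed between 246 and 296 CPM, and that over 5 lateral plate and limb markers between 158 and 211 CPM. No marker gene of these lists was at 0 in any library, and the part of other cell types in the HoxA values was not tested.

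The start-site sequences below are a selection of those that lie in open regions at start sites within the cluster. The stretches before Hoxa5, Hoxa11, Gm15050 and the inner start of Hoxa10 are not printed. The regions of the 5730596B20Rik and Hoxa7 stretches were called on day 3, that of Hoxa3 on day 3 and again on day 6, and that of the farther Hoxa2 stretch on day 7, while those of the nearer Hoxa2 stretch and of Hoxa10 were called in no comparison. Each printed stretch lies upstream of a RefSeq start site (build GRCm38.p6, which shares mm10 coordinates) and inside an open region. It runs 5′ to 3′ on the strand of the gene. Capitals mark Cdx words (CAATAAA, the form CCATAAA and the form TCATAAA), Smad words (GTCTAGAC, the short word CAGACA and the palindrome GGCGCC) and the Hox and Pbx word TGATTNAT, on either strand. The Hoxa2 stretches are chr6:52164832-52164963 and chr6:52164999-52165081. The stretch before 5730596B20Rik, a long noncoding RNA gene on the plus strand inside the Hoxa3 span, is chr6:52176905-52177154. Those before Hoxa3, Hoxa7 and Hoxa10 are chr6:52213253-52213317, chr6:52218699-52218823 and chr6:52240855-52241058.
Hoxa2, nearer the start: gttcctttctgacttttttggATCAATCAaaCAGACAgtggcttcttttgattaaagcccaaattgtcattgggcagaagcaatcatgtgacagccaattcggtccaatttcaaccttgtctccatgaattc
Hoxa2, farther from the start: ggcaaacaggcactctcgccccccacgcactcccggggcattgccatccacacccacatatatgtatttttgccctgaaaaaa
5730596B20Rik: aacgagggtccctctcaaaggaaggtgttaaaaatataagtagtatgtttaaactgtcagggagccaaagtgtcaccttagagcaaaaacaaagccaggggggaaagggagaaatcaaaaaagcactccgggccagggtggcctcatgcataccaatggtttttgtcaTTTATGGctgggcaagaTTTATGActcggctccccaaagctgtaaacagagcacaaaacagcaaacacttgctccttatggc
Hoxa3, long model: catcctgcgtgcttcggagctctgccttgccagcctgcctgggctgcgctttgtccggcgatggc
Hoxa7: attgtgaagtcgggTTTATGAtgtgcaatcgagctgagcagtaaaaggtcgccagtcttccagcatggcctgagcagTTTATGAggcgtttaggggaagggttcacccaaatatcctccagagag
Hoxa10, long model: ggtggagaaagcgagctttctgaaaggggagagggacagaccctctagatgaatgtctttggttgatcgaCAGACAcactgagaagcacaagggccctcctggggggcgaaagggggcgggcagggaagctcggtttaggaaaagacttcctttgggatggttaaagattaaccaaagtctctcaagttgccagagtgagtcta
The Hoxa7 stretch carries the Cdx word TCATAAA as TTTATGA in 2 places, 236 and 173 bases upstream of the start. The 5730596B20Rik stretch carries it once as TTTATGA and has TTTATGG, the reverse of CCATAAA, 82 bases upstream. Upstream of Hoxa2, ATCAATCA matches the Hox and Pbx word and stands next to the Smad word CAGACA, and the Hoxa10 stretch holds CAGACA 134 bases upstream. The printed Hoxa3 stretch and the farther Hoxa2 stretch hold none of the words. Of the stretches not printed, that of Gm15050, a noncoding gene inside Hoxa3, holds the Cdx word CCATAAA 30 bases upstream. Its region was not called on day 3 (0.01 ± 0.19, adjusted p = 0.977). The inner Hoxa10 stretch holds the Smad word GGCGCC, and those of Hoxa5 and Hoxa11 hold none. That of Hoxa11 is only 18 bases long, so a word had little room to occur in it.

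The summed level of the cluster was higher at each step until day 7. Summed over the 49 regions, the libraries held 117 and 135 CPM on day 2, 276 and 258 on day 3, 317 and 310 on day 6, 424 and 476 on day 7, and 282 and 320 on day 7 with Gdf11. Each untreated day lay above the one before with no overlap, and the Gdf11 libraries lay below both untreated day 7 libraries and around those of day 6. The mean was highest on day 7 in 32 regions, on day 3 in 7, with Gdf11 in 5, on day 2 in 4 and on day 6 in 1. No share of all regions was at hand for these counts. They include regions that failed the filter on low counts or whose only peak was in 1 library of their highest group.

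**Figure D1:**
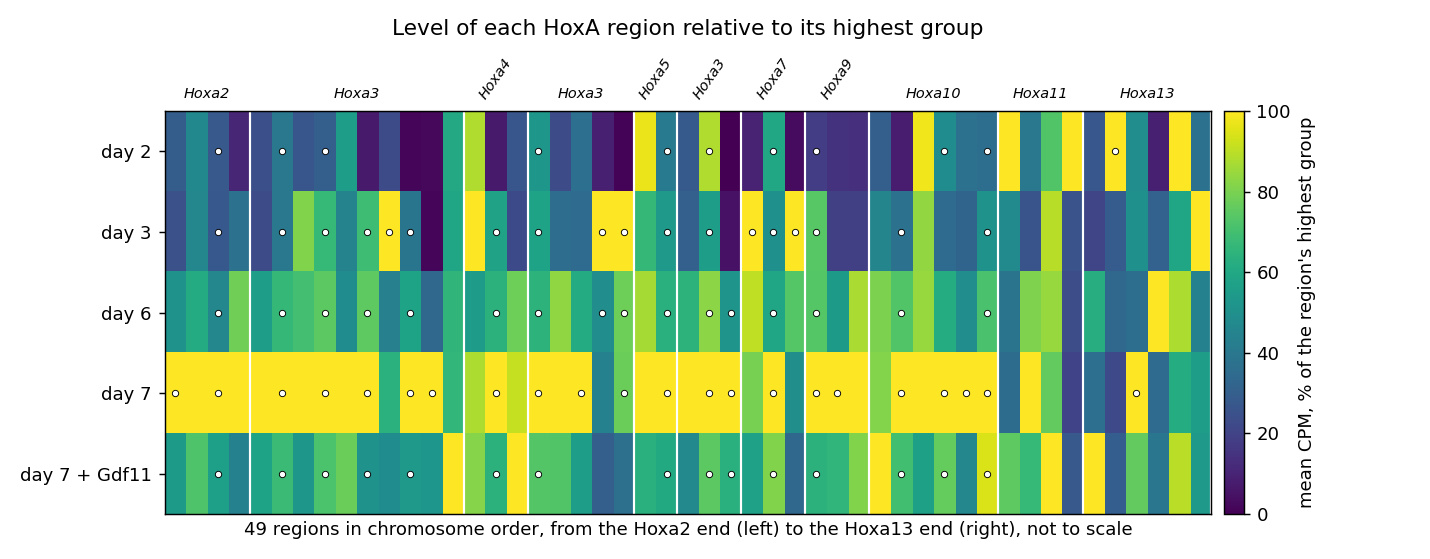
Mean CPM of each of the 49 regions (columns, chromosome order, not to scale) in the 5 groups (rows), as a percentage of the region's highest group mean; a white dot marks a deposited peak in both libraries of the group. The day 7 row is brightest in 32 columns, the first dot appears on day 2 in 11 columns and on day 3 in 9, and the Hoxa11 and Hoxa13 columns hold few dots.

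The order of opening did not run from one end of the cluster to the other. By the deposited peak calls, which were made separately in each library, 11 regions had a peak in both libraries from day 2, 9 more from day 3, 1 from day 6 and 6 from day 7, while 0 appeared first with Gdf11 and 22 never had a peak in both libraries of a group. The number of regions with a peak in both libraries was 11 on day 2, 18 on day 3, 16 on day 6, 22 on day 7 and 15 with Gdf11. No share of all regions was at hand for these counts of peaks. The libraries held from 80504 peaks (day 6 replicate 2) to 118603 (day 2 replicate 1), and the bearing of this on the counts was not tested. By level, 13 regions reached 50% of their highest group mean on day 2, 13 on day 3, 19 on day 6 and 4 on day 7. The 13 of day 2 include 3 of Hoxa11 and 2 of Hoxa13. Their means were at most 2.23 CPM in any group, so this measure rests on few counts there and does not show early opening. The regions that first had both peaks on day 3 were 5 of Hoxa3, 2 of Hoxa7, 1 of Hoxa4 and 1 of Hoxa10. Those of day 7 were 2 of Hoxa3 and 1 each of Hoxa2, Hoxa9, Hoxa10 and Hoxa13, and the Hoxa2 and Hoxa9 ones had no peak in both libraries of any group once a -log10 q of 5 or more was required.

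Open chromatin was already present on day 2 at 9 of the 49 regions that carried a peak in all 10 libraries. Among them was the Hoxa5 promoter region (chr6:52204405-52204953), with 12.4 and 13.2 CPM on day 2. Hoxa5 patterns the neck and the lung. The region around the start of the noncoding gene Gm15050 inside Hoxa3 (chr6:52172476-52172999) had 13.1 and 16.1 CPM, and the one downstream of Hoxa9 (chr6:52221516-52222633) had 9.3 and 12.3 CPM. A region inside Hoxa7 (chr6:52217431-52217707) stood at 6.9 and 8.11 CPM, and one before Hoxa2, described below, at 5.12 and 5.49 CPM. These early open places thus lay from Hoxa2 to Hoxa10, where the long-model promoter region (chr6:52240416-52241058) had 5.02 and 5.23 CPM. Beyond Hoxa10, 1 of the 49 regions had a peak in both day 2 libraries (chr6:52252986-52253140, between Hoxa11 and Hoxa13), at 1.67 and 1.96 CPM. The Hoxa13 promoter region, which crosses the end of the interval and is not a member, also had a peak in both, at 3.14 and 8.5 CPM.

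Day 3 against day 2 covers the first day after CHIR99021 was added. Of the 45 tested regions, 13 were higher and 0 lower, where 8.82% of all tested regions of the genome were higher and 4.35% lower. The 13 spanned 56 kb, from the Hoxa3 body to the 3′ flank of Hoxa10, and belonged to Hoxa3 (8), Hoxa7 (2), Hoxa4, Hoxa9 and Hoxa10 (1 each). No region of Hoxa2, Hoxa5, Hoxa11 or Hoxa13 was called. The median log2 change of the 45 was 0.1, against 0.07 over all tested regions, with 28 pointing upward and 17 downward. Without adjustment 15 were higher and 1 lower at p under 0.05, and DESeq2 called 12 higher and 0 lower.

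The Hoxa4 body held the region with the smallest p (chr6:52190538-52191297). It measured 5.23 and 3.14 CPM on day 2, 36.4 and 28.9 on day 3, 33.6 and 39.7 on day 6, 56.1 and 57.4 on day 7, and 33 and 39.8 with Gdf11. All day 3 libraries were far above day 2, and day 7 stood above every other group. The rise to day 3 was 2.94 ± 0.21 on the log2 scale (7.67-fold, adjusted p = 1.8e-16). This region held 95.4% of the summed Hoxa4 level on day 7. Hoxa4 belongs to the neck-level Hox genes.

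Downstream of Hoxa9, a gene of the trunk and of blood progenitors, the widest region of the cluster (chr6:52221516-52222633) rose from 9.3 and 12.3 CPM on day 2 to 49.2 and 39.4 on day 3. It then had 45.1 and 43 CPM on day 6, 59.7 and 60.1 on day 7, and 34 and 43.2 with Gdf11. Day 3 and day 6 overlapped, and day 7 lay above all other groups. The first step was 2.05 ± 0.18 (4.14-fold, adjusted p = 1.71e-13) and the next -0.01 ± 0.16 (adjusted p = 0.972). Per kb of region, the mean on day 7 was 53.6 CPM here and 74.7 CPM at the Hoxa4 body region.

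At the start of the noncoding gene 5730596B20Rik, the region chr6:52176905-52177356 had 1.99 and 2.35 CPM on day 2, 18 and 22.7 on day 3, 23.3 and 20.9 on day 6, 26.2 and 32.6 on day 7, and 13.3 and 16.7 with Gdf11. Its stretch with Cdx words is printed above. It rose by 3.22 ± 0.26 on day 3 (9.32-fold, adjusted p = 1.33e-14), and the Gdf11 libraries fell below those of day 3. Farther into the Hoxa3 span, chr6:52182819-52183269 held 0 and 3 counts on day 2 and 74 and 28 on day 3. That is 31.3-fold more, with an exact 95% counting interval from 10.4 to 154. It reached 6.29 and 4.04 CPM on day 3 and 10.6 and 16.1 CPM on day 7.

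A pair of regions between Hoxa4 and Hoxa5 opened on day 3 and were highest then. The first (chr6:52199522-52200206) had 0.941 and 2.35 CPM on day 2, 19.5 and 18.2 on day 3, 10.3 and 8.07 on day 6, 7.74 and 8.84 on day 7, and 5.32 and 6.03 with Gdf11. Day 3 stood above every other group, and day 6 and day 7 overlapped. The rise was 3.56 ± 0.32 (11.8-fold, adjusted p = 4.47e-13). The second (chr6:52200965-52201266) had 2 counts in all on day 2 and 190 on day 3, an 87.4-fold difference with an exact 95% counting interval from 23.9 to 727. Its libraries held 9.85 and 10.7 CPM on day 3, 8.23 and 7.8 on day 6, 7.29 and 8.69 on day 7, and 4.9 and 2.69 with Gdf11.

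The Hoxa7 promoter region (chr6:52218699-52219071), whose stretch with 2 Cdx words is shown above, followed the same course. Hoxa7 patterns the upper trunk. Its libraries had 0 and 0.523 CPM on day 2, 9.26 and 8.66 on day 3, 6.23 and 6.98 on day 6, 3.42 and 5.45 on day 7, and 3.04 and 3.01 with Gdf11. The untreated groups went down from day 3 on with no overlap, and a peak was called in both libraries on day 3 and in no other group. The rise was 5.18 ± 0.54 (adjusted p = 5.44e-11), while the later single steps of -0.45 ± 0.32 and -0.6 ± 0.34 did not pass (adjusted p = 0.382 and 0.524). Day 7 against day 3 was not tested. A second Hoxa7 region (chr6:52216758-52216970) rose by 3.22 ± 0.53 on day 3 and then stayed between 3.39 and 4.91 CPM in the untreated libraries from day 3 on.

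The other regions called on day 3 were smaller. Near the 3′ flank of Hoxa10, a gene of the lumbar level and the uterus, chr6:52230742-52231125 went from 0.732 and 1.31 CPM to 4.93 and 4.76, a rise of 2.27 ± 0.39 (adjusted p = 1.76e-05). In the Hoxa3 body, chr6:52175309-52175679 rose by 1.15 ± 0.22, from 6.48 and 7.45 CPM to 16.2 and 14.6. Of the 13 calls, 10 held under every alternative run. The others were chr6:52175122-52175274 (1.67 ± 0.57), not called in 5 of 10 alternatives, chr6:52180472-52180633 (2.06 ± 0.54), not called without day 2 replicate 2 or day 3 replicate 2, and the Hoxa3 distal region below, not called without day 2 replicate 1.

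**Figure D2:**
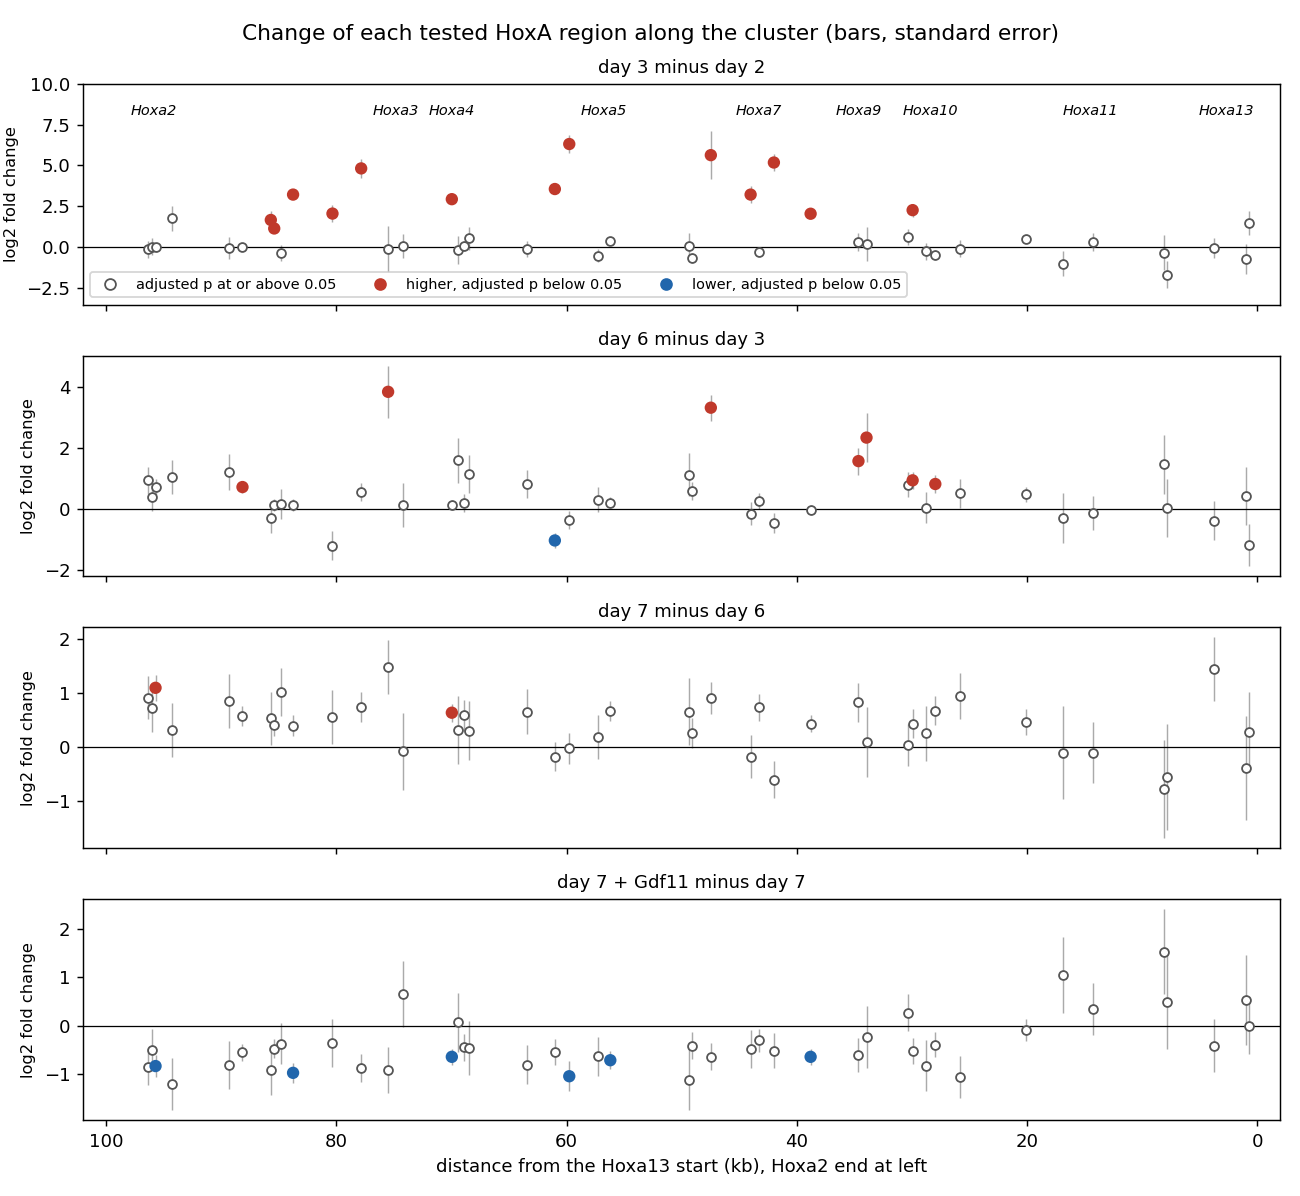
Log2 change of each tested region (points; bars, standard error) against its distance from the Hoxa13 start in kb, for 4 comparisons; filled points passed an adjusted p of 0.05. The 13 filled points of day 3 stand between the Hoxa3 body and Hoxa10, the 2 of day 7 at Hoxa2 and Hoxa4, and the 6 of the Gdf11 comparison from Hoxa2 to Hoxa9 lie below 0.

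Day 6 against day 3 compares 3 further days of culture. Here 7 of 45 regions were higher and 1 lower, against 9.19% higher and 6.05% lower in the genome. The median of the 45 was 0.41, against 0.02 over all regions. The clearest late region lay just before the long Hoxa3 model (chr6:52213253-52213566), between Hoxa5 and Hoxa7. Hoxa3 acts in the throat pouches and the neck. The region held 0 counts in both day 2 libraries, 8 and 4 counts on day 3, then 7.67 and 5.2 CPM on day 6, 11.5 and 13.3 on day 7, and 8.61 and 7.1 with Gdf11. Day 3 was at least 3.68-fold above day 2, taking 3 counts over the day 2 group as the floor, and day 6 was 3.33 ± 0.42 above day 3 (10.1-fold, adjusted p = 2.28e-08).

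A further Hoxa3 region (chr6:52185297-52185470) held 2 counts in all on day 2, 2 on day 3 and 35 on day 6, which is 16.5-fold more than day 3 with an exact 95% counting interval from 4.24 to 142. It went on to 3.69 and 6.04 CPM on day 7. The Gm15050 start region, open from the beginning, had 14.7 and 14.6 CPM on day 3 and 24.1 and 24.4 on day 6, a rise of 0.73 ± 0.19 (adjusted p = 0.00359). These 3 calls held under every alternative. Inside Hoxa9, chr6:52226151-52226307 had 1.1 and 1.44 CPM on day 3 and 4.55 and 2.74 on day 6, a rise of 1.58 ± 0.44 (adjusted p = 0.00811). The 3′ flank of Hoxa10 rose again, by 0.95 ± 0.28 (adjusted p = 0.0126). The remaining calls were chr6:52226879-52226978 in Hoxa9 (2.35 ± 0.79) and chr6:52232607-52233200 in Hoxa10 (0.83 ± 0.29, called in 3 of 10 alternatives). The 1 region that fell was the first of the pair between Hoxa4 and Hoxa5, by 1.02 on the log2 scale (SE 0.25, adjusted p = 0.00214), and it was not called without day 6 replicate 2. Dropping replicate 1 of day 3, or that of day 6, left 3 higher regions.

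Day 7 against day 6 is a step of 1 day in which regions from Hoxa2 to Hoxa5 and of Hoxa9 and Hoxa10 pointed upward on balance. Of the 45 tested, 2 regions were called higher and 0 lower, where 0.974% and 0.207% of all regions were. In all 35 of 45 pointed upward, with a median of 0.44 against -0.02 over all regions. The median was 0.82 for Hoxa2, 0.57 for Hoxa3 and 0.45 for Hoxa10, but -0.17 for Hoxa7, -0.1 for Hoxa11 and -0.39 for Hoxa13, and 5 of the 7 Hoxa11 and Hoxa13 regions pointed downward. At p under 0.05 without adjustment 18 were higher and 0 lower, and DESeq2 called 3 higher and 0 lower. The share of all regions was not at hand for either count. The Hoxa2 promoter region (chr6:52164999-52165375) was called for the first time here. Hoxa2, a gene of the hindbrain and the second branchial arch, is the most 3′ of the 9. Its region had 5.12 and 5.49 CPM on day 2, 6.12 and 4.33 on day 3, 8.47 and 9.17 on day 6, 17.2 and 20.8 on day 7, and 9.71 and 11.6 with Gdf11. Day 2 and day 3 overlapped, and day 7 lay well above all other groups. The rise was 1.1 ± 0.24 (2.14-fold, adjusted p = 0.00498). The other call was the Hoxa4 body region, with 0.64 ± 0.17 (adjusted p = 0.035). Neither held when day 6 replicate 1 or day 7 replicate 2 was left out, which left 0 regions called, and 1 was called without day 7 replicate 1 or with scaling by library size alone.

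**Figure D3:**
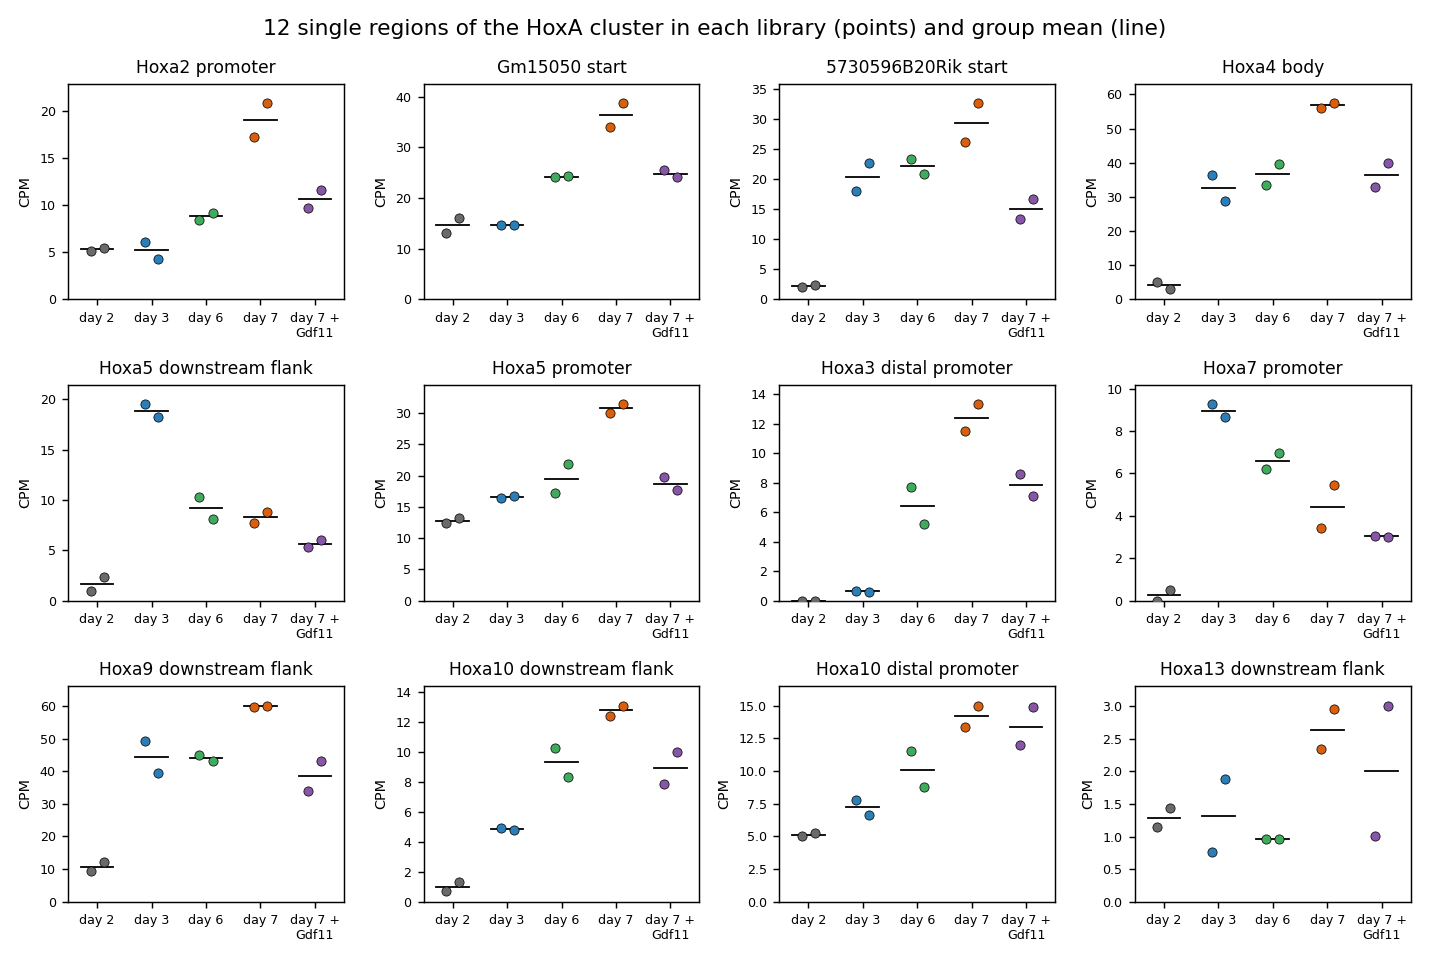
CPM of 12 single regions in each library (points) and the group mean (line), with an axis from 0 in each panel. The Hoxa2 promoter and Gm15050 panels stay level from day 2 to day 3 and climb later, the Hoxa4 body and Hoxa9 flank panels jump on day 3, and the Hoxa7 promoter and Hoxa5 downstream panels peak on day 3.

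Summed by gene, 4 members were first called on day 3, 2 on day 6 and 1 on day 7, and Hoxa11 and Hoxa13 in no comparison. No gene sum had its highest mean on day 3. Between day 2 and day 3, 4 of 9 genes were higher, against 12.3% of all 19040 genes tested. Hoxa4 went from 6.59 and 4.71 CPM to 37.9 and 30.5, Hoxa9 from 10.8 and 13.3 to 50.5 and 41.4, Hoxa7 from 7.53 and 8.89 to 18.4 and 21.1, and Hoxa3 from 42.1 and 51.5 to 107 and 111. In these 4 genes both day 3 libraries exceeded both of day 2. From day 3 to day 6, 2 of 9 rose, against 9.49% of all genes. They were Hoxa2, from 11.5 and 7.5 CPM to 17.5 and 15.3 (0.76 ± 0.2, adjusted p = 0.00502), and Hoxa10, from 22.5 and 20.6 to 37.2 and 31.7 (0.68 ± 0.15, adjusted p = 0.00146). Hoxa2 lost its call without day 3 replicate 2 or day 6 replicate 1.

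From day 6 to day 7, 6 of 9 genes rose, against 3.58% of all genes: Hoxa2 by 0.92 ± 0.18, Hoxa4 by 0.63 ± 0.14, Hoxa5 by 0.61 ± 0.16, Hoxa3 by 0.5 ± 0.1, Hoxa10 by 0.5 ± 0.15 and Hoxa9 by 0.47 ± 0.13. Hoxa5 went from 20.5 and 25.2 CPM to 33.4 and 35.8, its first called step. Hoxa7 stayed at 18 and 18.2 CPM on day 6 and 18.6 and 22.5 on day 7. Scaling by library size alone, which moved all changes of this step by -0.1, left 3 of the 6 calls. When day 6 replicate 1 was dropped 2 calls were made, when day 7 replicate 1 was dropped 3, and when day 7 replicate 2 was dropped 1.

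**Figure D4:**
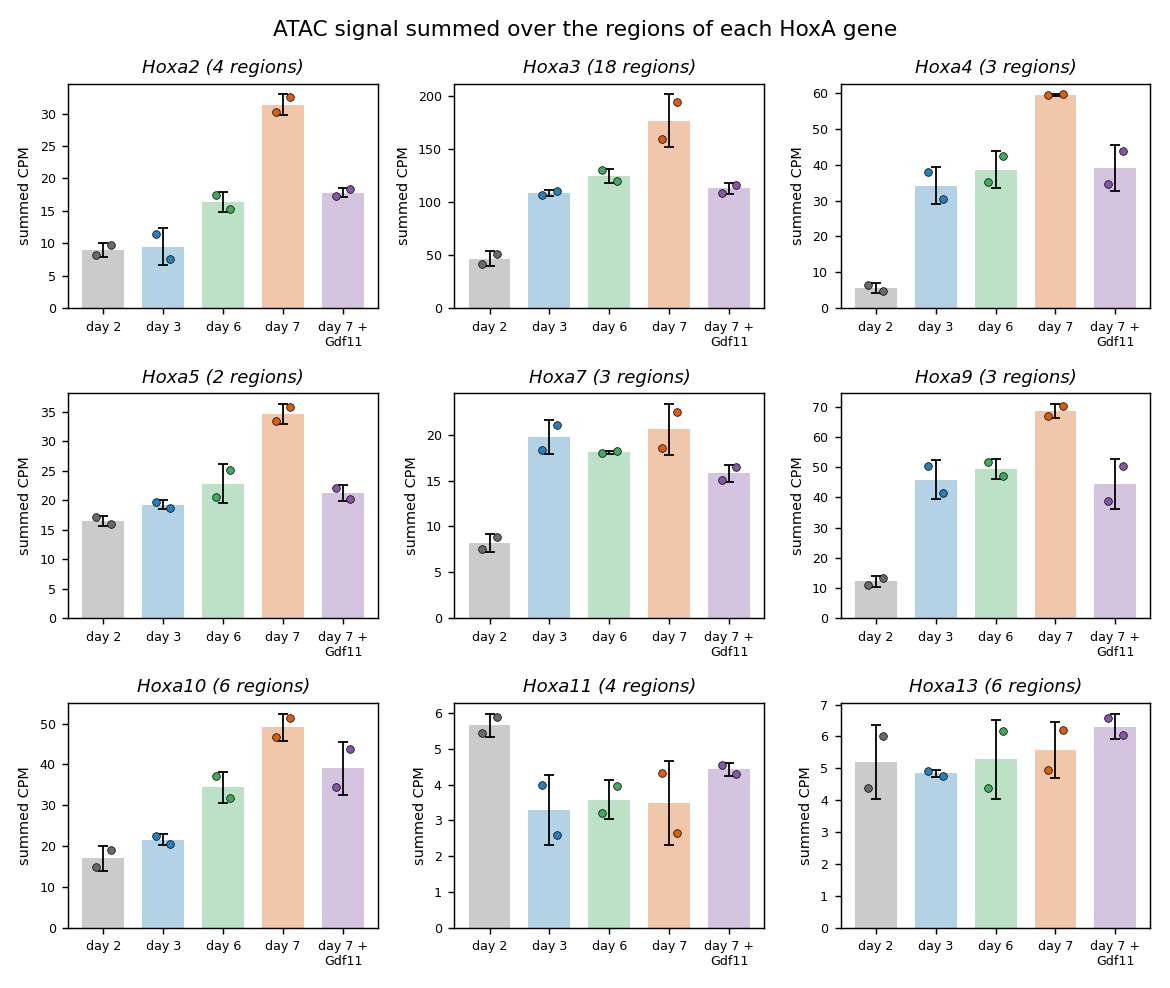
CPM summed over the regions of each of the 9 genes (bars, group mean; points, the 2 libraries; error bars, SD), with a separate axis from 0 in each panel. Hoxa4, Hoxa7 and Hoxa9 jump on day 3, Hoxa2 and Hoxa10 climb on day 6 and day 7, and Hoxa11 and Hoxa13 stay under 7 CPM in every library.

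Day 7 with Gdf11 against day 7 asks what 24 h of the ligand changed. Of the 45 regions, 6 were lower and 0 higher, against 2.65% lower and 1.09% higher in the genome, and the median was -0.51 against 0.03. At p under 0.05 without adjustment 14 were lower and 0 higher, and DESeq2 called 4 lower and 0 higher. The 5730596B20Rik start region fell by 0.97 on the log2 scale (SE 0.2, 1.96-fold, adjusted p = 0.000912), with the library values given above. The Hoxa9 flank and the Hoxa4 body region each fell by 0.64 (SE 0.16 and 0.17, adjusted p = 0.00959 and 0.0137), and in both all Gdf11 libraries lay below all untreated day 7 libraries. The Hoxa5 promoter region had 30.1 and 31.4 CPM without and 19.8 and 17.7 with Gdf11 (-0.71 ± 0.18, adjusted p = 0.0139). The Hoxa2 promoter region fell by 0.83 (SE 0.23, adjusted p = 0.0259), and the second region between Hoxa4 and Hoxa5 by 1.04 (SE 0.31, adjusted p = 0.0427).

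By gene, 5 of 9 were lower with Gdf11 and 0 higher, against 11.2% and 2.05% of all genes. Hoxa2 went from 30.3 and 32.6 CPM to 17.3 and 18.3 (-0.82 ± 0.18, adjusted p = 0.00173), and Hoxa5 from 33.4 and 35.8 to 22.1 and 20.2 (-0.7 ± 0.16). Hoxa3 (-0.65 ± 0.1), Hoxa9 (-0.62 ± 0.13) and Hoxa4 (-0.61 ± 0.14) followed. At p under 0.05 without adjustment 7 were lower and 0 higher, and DESeq2 called the same numbers as edgeR, 5 and 0. Library size alone moved all changes of this comparison by 0.16 and left 2 of the 6 region calls and 5 gene calls. With either of the day 7 libraries or Gdf11 replicate 1 left out, there were 2 region calls each, and leaving out Gdf11 replicate 1 left 3 gene calls.

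Day 7 with Gdf11 against day 6 compares the treated cells with libraries of the day on which the ligand was added. This comparison and the last 2 share libraries, so they are not independent. Of 45 regions, 1 was lower and 0 higher, against 1.34% and 1.06% of all regions, and the median was 0.03 against -0.01. The 1 region was the second of the pair between Hoxa4 and Hoxa5 (-1.06 ± 0.31, adjusted p = 0.0467), called in 4 of 10 alternatives. DESeq2 called 0, and at p under 0.05 without adjustment 4 were lower and 0 higher. By gene, 0 of 9 were called in either direction with edgeR, with DESeq2 or without adjustment, against 0.614% higher and 1.27% lower of all genes. Hoxa2, for example, had 17.5 and 15.3 CPM on day 6 and 17.3 and 18.3 on day 7 with Gdf11, a difference of 0.11 ± 0.18, and Hoxa9 had 51.8 and 47.1 against 38.7 and 50.5, a difference of -0.16 ± 0.13.

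The 5′ end of the cluster stayed at low levels throughout. Hoxa11, needed for the forearm and the kidney, and Hoxa13, needed for digits and hindgut, have 10 regions, of which 7 were tested and 0 were called in any comparison by edgeR or DESeq2. Without adjustment, 1 of the 7 was higher on day 3 and 1 on day 7. Hoxa11 summed to 5.44 and 5.88 CPM on day 2, 3.99 and 2.6 on day 3, 3.2 and 3.97 on day 6, 4.32 and 2.65 on day 7, and 4.56 and 4.31 with Gdf11. Hoxa13 summed to 4.39 and 6.01, 4.93 and 4.76, 4.39 and 6.16, 4.95 and 6.19, and 6.58 and 6.03 CPM in the same order. Both day 2 libraries of Hoxa11 lay above all of its others, and from day 3 on neighbouring groups overlapped in both genes. The largest part of this day 2 level of Hoxa11 lay in a different region in each library. These were chr6:52249373-52249539, with 34 and 7 counts, and chr6:52243949-52244096, with 4 and 22. Each had its only peak in the library where it was high. With Gdf11 against day 7, Hoxa11 differed by 0.3 ± 0.35 and Hoxa13 by 0.2 ± 0.3 (adjusted p = 0.619 and 0.709). Of the 7 regions 6 had estimates from 0, which is no change, to 1.53 on the log2 scale. The 1.53 belonged to chr6:52252661-52252784, with 28 and 6 counts in the Gdf11 libraries and 4 and 5 on day 7. The smallest adjusted p of the 7 was 0.401, so a difference was not detectable at this depth.

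Within that stretch, the region with the most signal on day 7 was chr6:52257047-52257216, downstream of Hoxa13, with 2.34 and 2.95 CPM on day 7 and 1.01 and 3.01 with Gdf11. Only on day 7 did both libraries of a group carry a peak there. The highest Hoxa11 region (chr6:52246461-52246664, inside the antisense gene Hoxa11os) ranged from 1.03 to 2.05 CPM over the 10 libraries. The region between Hoxa11 and Hoxa13 that had peaks on day 2 was at 0.36 and 0.442 CPM on day 7. The Hoxa13 promoter region itself (chr6:52260674-52261162) crosses the end of the interval and is not a member. It had a peak in all 10 libraries, between 3.14 and 10.5 CPM, and no call in any comparison. Hoxa10, next to this stretch, has start regions apart from each other: the long-model one went from 5.02 and 5.23 CPM on day 2 to 13.4 and 15 on day 7 with no single step called, and the inner one (chr6:52234895-52235113) first had both peaks on day 7, at 3.6 and 6.48 CPM.

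The promoter words can be set against all promoters of the same length. RefSeq promoters of 300 bases were at hand for 8 of the 9 genes, 9 promoters in all, and for Hoxa4 none was. A Cdx word was in 1 of the 9, that of Hoxa7, and in 10.5% of 32851 mouse promoters. A Smad word was in 3 (Hoxa2 and both of Hoxa10) and in 31.5% of all. The Hox and Pbx word was in 1 (Hoxa2) and in 3.22%, the Tcf and Lef words CTTTGAT or CTTTGAA in 1 (Hoxa11) and in 8.65%, and the Ctcf word in 0 and in 2.43%. The Cdx words share most of their letters with the motifs of the posterior Hox proteins. A match is a description of these letters and not a binding site.

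The authors' deposited tables also score motifs named after members of the cluster, across regions of the whole genome, and do not say how the target regions were chosen. In the authors' deposited table for regions up in the comparison it names d2_d3, the Hoxa11 motif was in 65.88% of targets and 44.58% of background sequences, rank 10 of 414 motifs. In the same authors' deposited table, the HOXA2 motif was in 4.9% and 1.95%. In the authors' deposited table for regions up in d6_d7, HOXA2 was in 8.83% of targets and 2.66% of background, rank 20. For regions down in d6_d7, the authors' deposited table has the Hoxa11 motif in 63.64% of 154 targets and 47.67% of background, rank 17. In the authors' deposited table for regions down in d7_d7g, the Hoxa11 motif was in 60.96% and 48.74%, and HOXA2 in 7.31% and 2.24%. The motifs of Hoxa9 and Hoxa10 were scored too and are not printed. In the authors' deposited table for regions up in d7_d7g, the Hoxa13 motif was in 43.98% and 42.13%, rank 213.

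Genes that act on Hox clusters were summed in the same way, and their counts stand against the shares of all genes called: 12.3% higher on day 3, 9.49% higher and 10.8% lower on day 6, 3.58% higher on day 7 and 11.2% lower with Gdf11 against day 7. Of 5 caudal genes, 4 rose on day 3: Cdx1 (1.84 ± 0.17), Sp5 (1.78 ± 0.11), Cdx4 (1.11 ± 0.15) and Cdx2 (0.93 ± 0.1), while T, whose product Brachyury marks the progenitors, rose on day 6 (0.71 ± 0.16). On day 6, 3 of the 5 fell, and with Gdf11 against day 7 all 5 fell, Cdx2 most clearly (-0.63 ± 0.1, adjusted p = 3.58e-05). Of 7 genes for the homeodomain partners of Hox proteins, 1 rose on day 3, 4 on day 6 and 4 on day 7, and 6 fell with Gdf11, among them Meis1 (0.52 ± 0.08 on day 6, 0.42 ± 0.08 on day 7 and -0.5 ± 0.08 with Gdf11) and Meis3 (-0.99 ± 0.12 with Gdf11). Of 7 genes of the trunk-to-tail change, 4 fell with Gdf11, including Smad3 (-0.69 ± 0.1) and Lin28a (-0.79 ± 0.11). Of 8 genes for Polycomb, Trithorax and chromatin architecture, calls came on day 6 alone, where Ezh2 and Rad21 were higher and Kmt2a lower.

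Of 4 neighbouring genes on the flanks, 2 rose on day 3, 1 fell on day 6, 1 rose on day 7 and 2 fell with Gdf11 against day 7. Evx1, the homeobox gene beyond Hoxa13, rose by 0.95 ± 0.14 on day 3, from 25.5 and 28.8 CPM to 53.4 and 50.8, and fell by 0.62 on day 6 (SE 0.14, adjusted p = 0.000983). Skap2, beyond the 3′ end, had 140 and 133 CPM on day 6, 197 and 211 on day 7, and 133 and 149 with Gdf11, a rise of 0.58 ± 0.09 and a fall of 0.53 (SE 0.09). Hibadh, on the Evx1 side, rose by 0.63 ± 0.12 on day 3 (adjusted p = 0.000125), averaged 90.1 CPM on day 7 and 73.9 with Gdf11, and was not called in that last comparison (adjusted p = 0.0727). Snx10, on the Skap2 side, averaged 74.9 CPM on day 7 and fell by 0.35 with Gdf11 (SE 0.11, adjusted p = 0.0277). The difference between flanks and cluster was not tested.

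The genes whose regions followed the cluster most closely were sought among 9515 genes above the median level, by Pearson correlation of log2 CPM over the 10 libraries with the sum over all 52 regions. They were Gli3 (r = 0.994), Slc37a3 (0.992), Hoxc6 (0.991), Vta1 (0.99) and Hoxc5 (0.99). Hoxc5, for example, averaged 7.25 CPM on day 2, 32.7 on day 3, 47.1 on day 6, 80.9 on day 7 and 41.7 with Gdf11. For the sum over Hoxa10, Hoxa11 and Hoxa13 they were Foxp1 (0.986), Arhgef10 (0.986), Ptch1 (0.985), Klhl29 (0.985) and Nsg2 (0.983), and Ptch1 averaged 142, 145, 204, 262 and 219 CPM in the same order of groups. This sum was mostly Hoxa10, which averaged 49.1 CPM on day 7, against 3.49 for Hoxa11 and 5.57 for Hoxa13. The points of these correlations share libraries and depth, so they are a description.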

How the data were processed

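ATAC-seq was done on 10 libraries of 50000 cells. The deposited counts are raw counts per merged region, 1 per region and library, with no coordinates. The submitters' processing notes name build mm10 and, without roles, HOMER 4.10, bedtools, MACS2 2.1.1.20160309, SAMtools and HISAT2 2.1.0, and the counter is not given in the sources used here. The deposited peak lists hold, per library, a fold ratio and a -log10 q for each peak, and the deposited motif tables hold percent values, counts and a log p score. Positions come from merging all peak lists, with chromosomes sorted as text: this gives 246799 regions, the number counted, and 0 counts of 0 in a library's own peaks. Regions (173175 after filterByExpr) and gene sums within 50 kb (19040 genes) were tested with edgeR 4.0.16 in R 4.3.3 (TMM, 1 fit of all groups, quasi-likelihood F tests, two-sided, common dispersion 0.0402), with DESeq2 1.42.0 as an alternative, and the fit was tested on simulated data. Intervals and floors cover counting error only. Every called region of the 9 genes, the highest region of each gene and the genes most like the cluster are named, and 3 regions nearest to another gene are not reported here. Members, lists and words were chosen with earlier results of these data known. Motifs were searched in promoters only, since no genome was used.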

Additional observations from a re-analysis of the deposited data

How the results depend on the processing

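Leaving out 1 library at a time, the number of regions higher on day 3 was 11 to 12 and lower 0 to 1, and genes stayed at 4. For day 6 against day 3 the range was 3 to 6 regions higher, 0 to 1 lower and 1 to 2 genes. For day 7 against day 6 it was 0 to 2 regions and 1 to 4 genes. For Gdf11 against day 7 it was 2 to 4 regions lower and 3 to 6 genes, and for Gdf11 against day 6 it was 0 to 1 region lower. Where a group had 1 library left, it was assumed to vary like the other groups. Scaling by library size alone gave 1 region and 3 genes higher on day 7 against day 6, 2 regions lower with Gdf11 against day 7 and 0 against day 6. Fitting only the 4 libraries compared gave 4 regions higher on day 7 and 2 lower with Gdf11 against day 6. For that last comparison, leaving out mitochondrial regions gave 0, and DESeq2 gave 0. Over the tested regions, the differences between replicate 1 and replicate 2 hardly correlated between groups (10 correlations from -0.001 to 0.033). Counting noise in single regions can hide a shared shift, so these correlations cannot exclude a pairing. In every group replicate 2 had the lower total and the higher mitochondrial share, for example 13.3% against 10.1% on day 3. With the replicate number as a block, 4 regions were higher on day 7 and 2 lower with Gdf11 against day 6, and the counts of the other comparisons stayed within 1.5 times. The 17 calls of member genes were refitted 203 times, of which 180 were still called and 23 were not. The 28 uncalled comparisons were refitted 332 times, of which 2 gave a call, and 0 calls reversed. Taking peaks with a -log10 q of 5 or more gave 9, 9, 1 and 4 regions first open on day 2, day 3, day 6 and day 7, and peaks covering at least 50% of a region gave 8, 6, 2 and 7. A level of 25% of the highest mean gave 31, 13, 5 and 0, and one of 75% gave 8, 8, 8 and 23. The cause of these differences was not tested. With 2 libraries a group and regions of few counts at Hoxa11 and Hoxa13, depth limits what can be called there.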
